A study of Homo sapiens with 11 samples.

Results

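The regulators and markers of the epithelial to mesenchymal transition were followed in RT4 cells, a human line from a bladder transitional cell papilloma, grown on plastic or on Matrigel, a cancer-remodeled extracellular matrix (crECM). The 10 genes were the intermediate filament gene VIM, the transcription factor genes TWIST1, SNAI1, SNAI2, ZEB1 and ZEB2, the matrix protein genes FN1, TNC and SPARC, and the matrix enzyme gene LOX. They were taken as every probe whose only gene symbol was one of these, which gave 12 probes of the 22464 on the array and 10 of the 14941 genes with a probe of their own, ZEB2 and TNC having 2 probes each. The series held 11 one-color arrays of spotted long oligos hybridized with Cy3 labeled cDNA: 2 of cells on plastic, labelled as replicates, and 9 of cells moved from plastic onto a crECM gel and collected after 12 h and after 1, 2, 3, 4, 6, 7, 8 and 9 days, with 1 array for each time. All arrays were of the same untreated line. The gel cultures were fed McCoys medium with fetal calf serum and freed from the gel with Matrisperse before RNA was taken, and the labels describe no separate protocol for plastic. Nothing in the labels says that the plastic replicates came from separate cultures. The p-values thus measure the spread between these arrays, and precision is set by how few they are. The 9 crECM arrays are time points and not replicates, so their spread in the comparison with plastic holds the time course and noise.

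In the epithelial to mesenchymal transition, epithelial cells loosen their cell to cell junctions and take on traits of mesenchymal cells. The Snail, Twist and ZEB factors bind E-box sequences and repress epithelial genes, above all CDH1, which encodes E-cadherin. Vimentin, fibronectin, tenascin C, SPARC and lysyl oxidase are among the filament, matrix and matrix-modifying proteins by which the mesenchymal state is commonly followed, and bladder papilloma cells are epithelial.

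The promoters of LOX and TNC, whose signals differed most between the substrates, and that of ZEB1, a factor that binds E-boxes, are shown from RefSeq (GRCh38.p14) as the 250 bases before the gene's outermost start, 5′ to 3′ on the gene's strand. Capitals mark CAGGTG, an E-box to which Snail and ZEB factors bind, or TATAA, the core of the TATA box, both searched on both strands and not overlapping each other. The windows are chr5:122078260-122078509 (minus strand) for LOX, chr9:115118158-115118407 (minus strand) for TNC and chr10:31318167-31318416 (plus strand) for ZEB1.
LOX: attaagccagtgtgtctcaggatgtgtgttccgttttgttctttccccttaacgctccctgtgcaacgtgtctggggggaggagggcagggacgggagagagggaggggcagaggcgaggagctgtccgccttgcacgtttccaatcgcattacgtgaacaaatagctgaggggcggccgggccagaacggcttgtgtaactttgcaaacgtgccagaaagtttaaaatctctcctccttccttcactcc
TNC: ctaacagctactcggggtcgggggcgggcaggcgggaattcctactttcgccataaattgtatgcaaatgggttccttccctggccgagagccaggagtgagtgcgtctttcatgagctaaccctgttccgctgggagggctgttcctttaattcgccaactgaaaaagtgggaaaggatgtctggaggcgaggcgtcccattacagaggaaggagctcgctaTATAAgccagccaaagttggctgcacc
ZEB1: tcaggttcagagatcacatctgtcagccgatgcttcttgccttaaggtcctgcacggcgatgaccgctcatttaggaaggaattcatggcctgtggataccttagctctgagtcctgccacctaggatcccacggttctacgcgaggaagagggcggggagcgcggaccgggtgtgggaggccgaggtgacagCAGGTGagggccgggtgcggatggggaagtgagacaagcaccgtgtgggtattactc
Promoters were listed for 7 of the 10 genes and not for TWIST1, SNAI1 and SNAI2. In these outermost windows CAGGTG was found for ZEB1 alone, on the sense strand with its first base 57 bases before the start, against 17.5% of all 35116 promoter windows of this length. TATAA lay 27 bases before the start of TNC and 28 bases before that of FN1 on the sense strand, and farther upstream in ZEB2 at 231 bases and, on the other strand, in VIM at 217 bases, against 18.9% of all windows. The LOX window shown held neither, while both of its other listed promoters held CAGGTG. These matches describe the letters and not bound sites.

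Values are the deposited log10 values. The methods scale signals in standard deviations (SD) of the array's noise around its zero point, before the regression between arrays. On this scale 3 SD, the threshold for expression in the methods, is 0.48. Before adjustment the plastic arrays were dimmer, with a median raw intensity of 162 and 140 against 224 to 482 on crECM, and by the noise peak rebuilt here 53.1% and 44.5% of their probes lay above 3 SD, against 76.7% to 85.4% on crECM. After the regression between arrays these shares were 86.4% and 85.2% on plastic and 83.9% to 86.6% on crECM. A deposited value of 3 SD then corresponded to a raw intensity of 13.3 and 9.7 on plastic and 52.3 to 135.8 on crECM. On plastic this lay below the mode of the rebuilt noise peak, at 28.5 and 29.25. Deposited SDs there are thus not distances above that peak. The dimmest crECM arrays were 12 h and day 7, with medians of 224 and 250 against 338 to 482 on the others. On the 12 h and day 7 arrays 3 SD corresponded to 66.4 and 52.3, against 93.7 to 135.8 on the others. Each array also has a single lowest value, shared by 1175 to 2651 probes, that holds no order below it (−2.51 and −2.39 on plastic, −3.52 to −5.98 on crECM). The substrate cannot be told apart from the brightness and handling of the plastic arrays, and raw intensities are therefore given beside the results.

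LOX and one of the probes for TNC rose on crECM, and SNAI1, ZEB1 and one of the probes for ZEB2 fell in the deposited values, by limma on log2 values floored at 3 SD with Benjamini-Hochberg adjustment over 21480 probes. Of the 12 probes 11 could be tested, and 2 were higher, 3 lower and 6 did not pass, where 45.2% of all tested probes were called (22.8% higher, 22.4% lower). The share of called members was thus close to that of the array, and the median log2 change was 0.061 in the members and 0.057 over all probes. Without overlap between the substrates, 2 member probes were higher on crECM (20.8% of all tested probes) and 4 lower (24.4%).

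**Figure D1:**
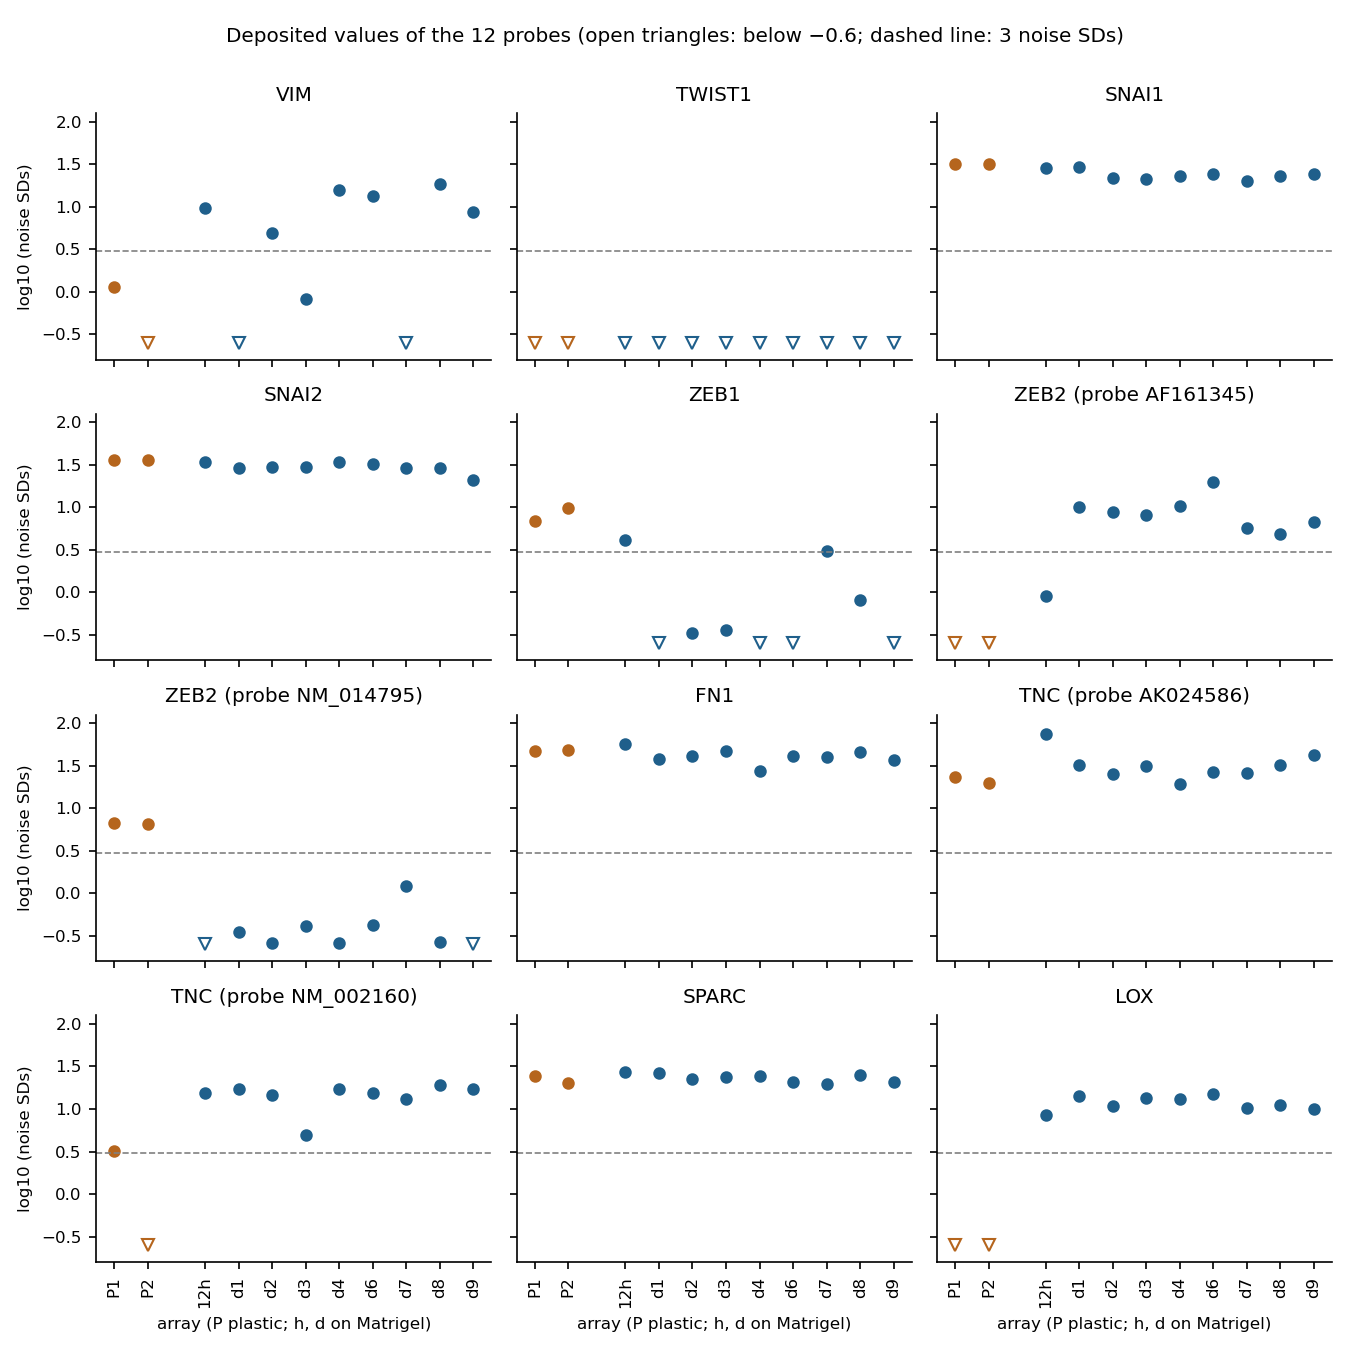
Deposited log10 values (noise SDs) of the 12 probes on the 2 plastic arrays (P1, P2, brown) and the 9 crECM arrays by time (blue), with 1 point for each array. Open triangles stand for values below −0.6, and the dashed line for 3 SD. LOX lies below the line on both plastic arrays and above it on all 9 crECM arrays, and TWIST1 lies below it on every array.

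VIM encodes vimentin, the intermediate filament protein of mesenchymal cells, and its probe did not pass the test. On plastic it was at 0.058 on 1 array and at the array's lowest value on the other. On crECM it was at 0.98 at 12 h, at the lowest value on day 1, at 0.69 on day 2 and at −0.083 on day 3. It then stood at 1.20 on day 4 and 1.12 on day 6, was at the lowest value on day 7, and was at 1.27 on day 8 and 0.94 on day 9. The signal was thus above 3 SD on 6 of the 9 crECM arrays and on neither plastic array, and went on and off between neighboring days. Raw intensities behaved alike, from −17.2 on day 1 to 338 on day 4, against 6.10 and −10.4 on plastic. The log2 change was 1.23 ± 0.72 (SE; adjusted p = 0.184), with a 95% interval of −0.34 to 2.81, so that neither no change nor a several-fold rise was outside it.

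Among the transcription factors, TWIST1, a basic helix-loop-helix factor, was at the lowest value on all 11 arrays (raw −95.3 to 15.8) and could not be tested. Such a probe was found for 0.877% of the array.

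SNAI1 and SNAI2 encode Snail and Slug, zinc finger repressors of E-cadherin, and both were well above noise on every array. SNAI1 was at 1.50 on both plastic arrays and between 1.30 and 1.47 on crECM, with a median of 1.36. All 9 crECM arrays lay below both plastic arrays, by a log2 change of −0.41 ± 0.14 (SE; adjusted p = 0.0375), or 1.33-fold. This call was not firm: it was lost without either plastic array (adjusted p = 0.154 and 0.162) or without day 2, 3, 4 or 8 (adjusted p from 0.0503 to 0.0546), when the values were rebuilt from raw intensity and regressed again (log2 change −0.20, adjusted p = 0.208), with quantile normalization (adjusted p = 0.0792) and with array weights (adjusted p = 0.0766). In the rebuilt values without a regression it was reversed (log2 change 0.99, adjusted p = 0.00326), or −0.26 relative to the shift of all probes by 1.25. Raw intensities of SNAI1 overlapped between the substrates, at 279 and 250 on plastic and 220 to 529 on crECM. SNAI2 was at 1.56 and 1.55 on plastic and from 1.33 to 1.54 on crECM, with a median of 1.47, again without overlap. Its log2 change of −0.29 ± 0.15 (SE) did not pass (adjusted p = 0.132), and the 95% interval ran from −0.61 to 0.035.

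ZEB1 and ZEB2 encode zinc finger and homeobox repressors, and their 3 probes did not move together. ZEB1 (chromosome 10, 31318417 to 31529804 in GRCh38.p14) was at 0.84 and 0.99 on plastic, or 6.97 and 9.76 SD on the deposited scale. On crECM it was above 3 SD at 12 h (0.61) and barely on day 7 (0.49). It was at −0.48, −0.44 and −0.089 on days 2, 3 and 8, and at the lowest value on days 1, 4, 6 and 9. The 12 h and day 7 arrays were the dimmest on crECM. Raw intensity was 74.3 at 12 h and 53.1 on day 7, against 53.3, 60.8 and 55.7 on days 2, 3 and 8. ZEB1 was at least 2.65-fold lower on crECM in limma (log2 change −1.40 ± 0.13 SE, adjusted p = 7.64e-06), with no overlap of the substrates. The raw intensities did overlap, at 35.5 and 46.5 on plastic and 4.29 to 74.3 on crECM, and on plastic they were 0.18 and 0.38 SD from the mode of the rebuilt noise peak. With the rebuilt values and a regression the log2 change was −0.42 (adjusted p = 0.0300), and without a floor the call was lost (adjusted p = 0.210).

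Of the ZEB2 probes (chromosome 2, 144384081 to 144520119), the one designed to the RefSeq transcript NM_014795 was at 0.82 on both plastic arrays and at or below 0.087 on all 9 crECM arrays, where none reached 3 SD. It was at least 2.20-fold lower on crECM (log2 change −1.14 ± 0.044 SE, adjusted p = 3.26e-09), but an entire group at the floor has no spread, which makes this SE small. The raw intensities ran the other way, at 33.4 and 26.8 on plastic and 37.2 to 72.9 on crECM, and in the rebuilt values the probe was under 3 SD on every array. The other ZEB2 probe, from the cDNA AF161345, was at the lowest value on both plastic arrays. On crECM it was at −0.047 at 12 h and from 0.69 to 1.30 on the later days. All 9 crECM arrays thus lay above plastic as deposited, and 8 of 9 with values floored at 3 SD. The log2 change of this probe, 1.34 ± 0.52 (SE), missed the threshold in limma (adjusted p = 0.0554). It passed without the 12 h array (adjusted p = 0.0140) or the day 6 array (adjusted p = 0.0393). It also passed with no floor (log2 change 10.87, adjusted p = 6.5e-06) and a floor of 1 SD (adjusted p = 0.0156). With a floor of 5 SD it did not (adjusted p = 0.224). Nor did it pass in the rebuilt values (adjusted p = 0.174 with a regression, 0.114 without) or after quantile normalization (adjusted p = 0.419). Raw intensities of this probe did not overlap, at −67.7 and −70.0 on plastic and 51.2 to 392 on crECM. The probes of this gene therefore gave opposite directions in the deposited values and no common direction can be given for ZEB2. Across the 11 arrays their floored values had r = −0.62 and their raw intensities r = 0.83, all arrays sharing their brightness.

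**Figure D2:**
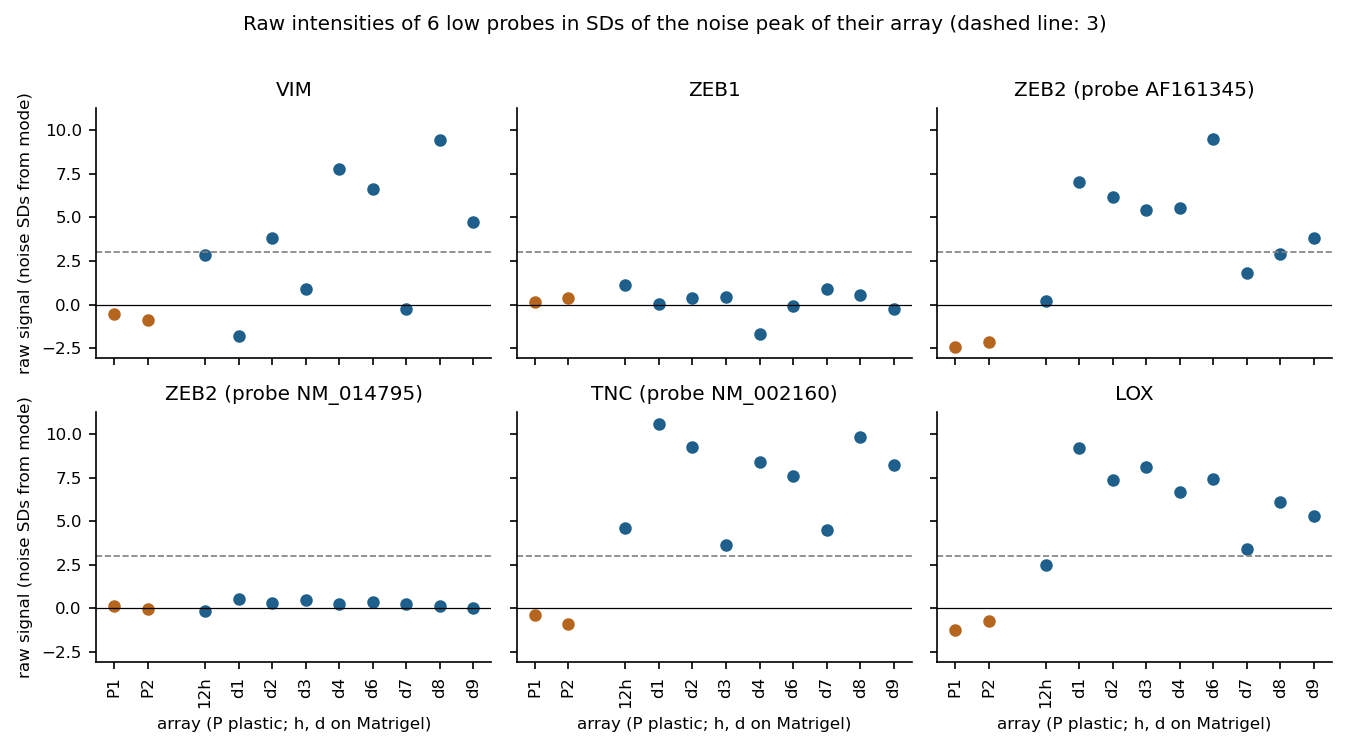
Raw intensities of 6 low probes, as SDs of the rebuilt noise peak from its mode, on the 2 plastic (brown) and 9 crECM arrays (blue). The dashed line is 3 SD. ZEB1 and the NM_014795 probe of ZEB2 stay below the line on all arrays, while LOX and the NM_002160 probe of TNC lie below 0 on plastic and from 2.50 to 10.6 on crECM.

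Among the matrix genes, LOX (chromosome 5, 122063195 to 122078259) encodes lysyl oxidase, which cross-links collagen and elastin. It was at the lowest value on both plastic arrays, as were 8.8% of all probes. On crECM it was at 0.93 at 12 h, 1.16 on day 1, 1.04 on day 2, 1.13 on day 3 and 1.12 on day 4. It was at 1.18 on day 6, 1.01 on day 7, 1.05 on day 8 and 1.00 on day 9, so that every crECM array was above 3 SD and the values varied little among themselves. LOX rose at least 3.90-fold (log2 change 1.97 ± 0.22 SE, adjusted p = 2.75e-05). Raw intensities were −19.6 and −2.30 on plastic and 109 to 325 on crECM, without overlap. From the mode of the rebuilt noise peak, LOX was 2.50 SD away at 12 h and 3.43 to 9.19 SD on the later days.

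TNC (chromosome 9, 115019575 to 115118157) encodes tenascin C, a matrix glycoprotein of remodeling tissue. Its probe NM_002160 was at 0.51, just above 3 SD on the deposited scale, on the first plastic array and at the lowest value on the second. Its raw signal there was −0.35 and −0.90 SD from the mode of the rebuilt noise peak. On crECM the probe was at 0.69 on day 3 and from 1.12 to 1.29 on the other 8 arrays, all above both plastic arrays. It rose at least 4.52-fold (log2 change 2.18 ± 0.41 SE, adjusted p = 0.00137), with raw intensities of 14.4 and −12.1 on plastic and 149 to 360 on crECM. Its other probe, from the cDNA AK024586, was above 3 SD on every array in the deposited values, at 1.36 and 1.30 on plastic. On crECM it was at 1.28 to 1.88, with a median of 1.49. From the mode of the rebuilt noise peak it was 3.75 and 2.19 SD away on plastic. The change of that probe was in the same direction but did not pass (log2 change 0.57 ± 0.38 SE, adjusted p = 0.237), although its raw intensities did not overlap, at 178 and 129 on plastic and 285 to 675 on crECM.

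LOX and the NM_002160 probe of TNC had a mean below 0 on plastic and above 1 on crECM, the levels that the methods set for off-on genes, as did 3.97% of all probes, and no member had the reverse (0.41%). The methods applied these levels to hypervariable genes, a filter that was not applied here. TNC reached them only through the second plastic array, without which 1 off-on member was left, and with the rebuilt values, where 1.37% of all probes did so, neither gene did. The higher call itself held for both in each of 20 alternatives. In the rebuilt values without a regression, however, all probes shifted up by a median of 1.25 on the log2 scale, and relative to that shift LOX was at −0.27 and the TNC probe at −0.036, with plastic at the floor for both. Over all 12 probes, raw intensities on crECM lay above both plastic arrays for 7 and below them for 0, against 54.8% above over the array.

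FN1 encodes fibronectin and SPARC a collagen-binding matricellular protein, and neither passed the test. FN1 was at 1.67 and 1.68 on plastic and from 1.44 to 1.76 on crECM, the lowest being day 4 and the highest 12 h. Its log2 change was −0.21 ± 0.20 (SE; adjusted p = 0.423; 95% interval −0.65 to 0.23). SPARC was at 1.39 and 1.31 on plastic and from 1.30 to 1.44 on crECM, with a log2 change of 0.061 ± 0.14 (SE; adjusted p = 0.745; 95% interval −0.25 to 0.37). Both intervals lie within 2-fold for the deposited values. In the rebuilt values without a regression SPARC was at a log2 change of 1.59 (adjusted p = 0.000107), where all probes shifted by 1.25. In the deposited values, 5 member probes were above 3 SD on all arrays, as 72.1% of the array was. They were FN1, SPARC, SNAI1, SNAI2 and the AK024586 probe of TNC. By raw intensity over the rebuilt noise peak, SPARC and the TNC probe were at 2.24 and 2.19 SD on the second plastic array.

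**Figure D3:**
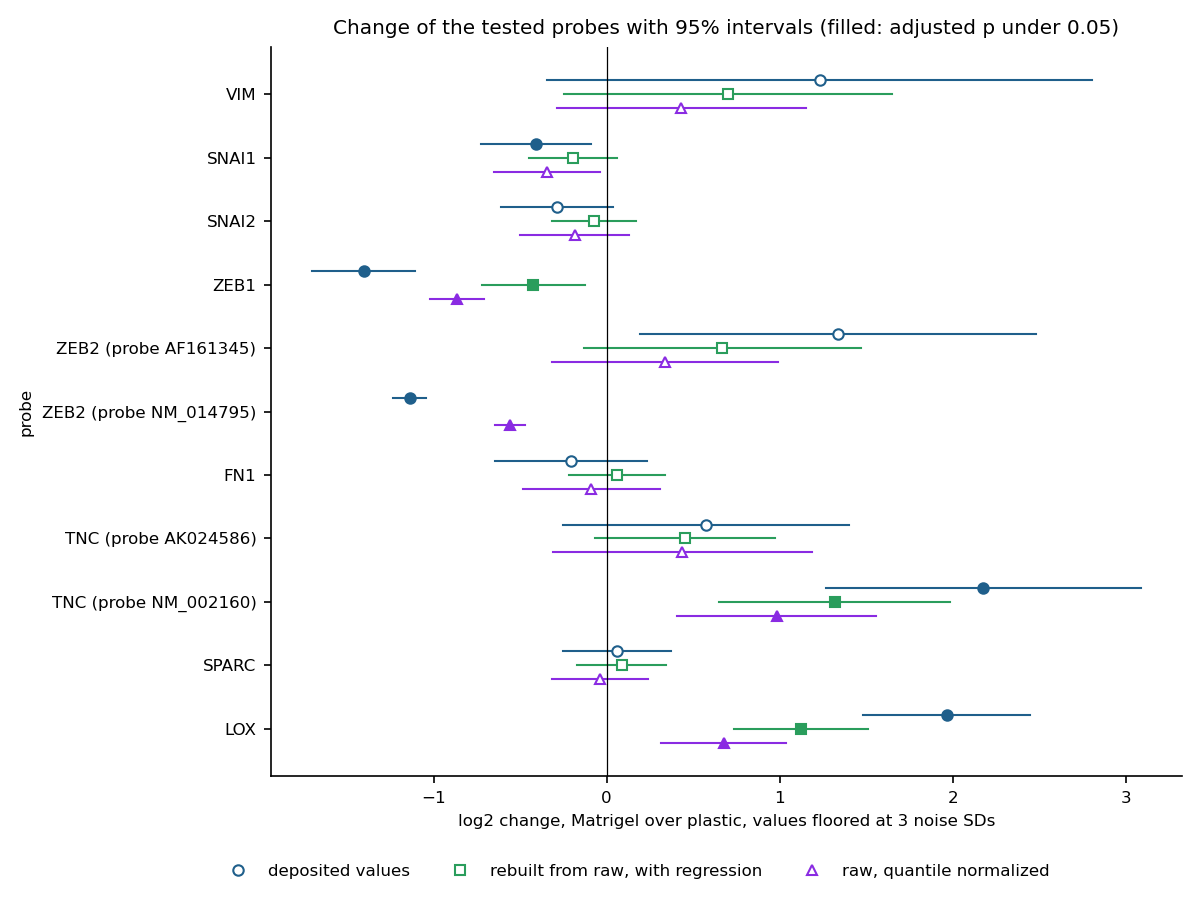
Log2 change between crECM and plastic for the 11 tested probes (values floored at 3 SD), with 95% intervals from limma, for the deposited values, for values rebuilt from the raw intensities with a regression, and after quantile normalization. Filled symbols have an adjusted p under 0.05. LOX and the NM_002160 probe of TNC are filled and above 0 for all 3, whereas SNAI1 is filled for the deposited values only.

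Over time on crECM no trend was found. No member probe had a slope on log2 of the day that passed the adjustment in limma (0.00466% of all probes did, 1 of 21480), and 2 had an unadjusted p under 0.05, against 1819 over the array. These were ZEB1, with a slope of −0.069 for each doubling of the time, and SPARC, with a slope of −0.083 (adjusted p = 0.532 in limma for each). The count was 0 also in each of 18 alternatives.

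At the first time point, 12 h, LOX was at 0.93, the lowest of its crECM arrays, and the NM_002160 probe of TNC at 1.18, both above 3 SD. The 12 h array was also the dimmest crECM array (median raw intensity 224). The part of brightness in the differences below was not tested. In a fit of the 12 h array against the other 8, the single array is assumed to vary as the others do, and their spread holds the time course as well as noise, so that a value that does not pass shows no likeness. The log2 difference was −0.50 ± 0.25 (SE; adjusted p = 0.330) for LOX and 0.13 ± 0.64 (SE; adjusted p = 1.00) for the TNC probe. Of the 11 tested probes 2 were higher at 12 h and 0 lower (3.54% and 2.69% of all probes; 6.23% in either direction). The AK024586 probe of TNC was highest at 12 h, at 1.88 against 1.28 to 1.62 later, or 2.64-fold higher (log2 difference 1.40 ± 0.33 SE, adjusted p = 0.0471), a call lost in most alternatives. ZEB1 at 12 h was at least 1.36-fold higher than later (adjusted p = 2.77e-07), with 7 of the other 8 arrays at the floor and so without spread. That call was lost with no floor (adjusted p = 0.610), with floors of 1 SD (0.110) and 5 SD (1.00) and after quantile normalization (1.00). The AF161345 probe of ZEB2 was lowest at 12 h (log2 difference −1.51 ± 0.62 SE) without passing (adjusted p = 0.237).

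The genes of related lists are counted with 1 probe a gene, beside 24.2% higher and 20.1% lower and a median log2 change of 0.087 over 14517 genes. These counts depend on the scaling: the rebuilt values without a regression, in which all probes shifted up by 1.25, gave no lower call in any list, so each count below is given also for the rebuilt values with a regression and after quantile normalization. Over all probes the rebuilt values gave 5730 higher and 1653 lower of 20010 with a regression, and 15796 and 61 of 19528 without it. Quantile normalization gave 3064 and 3687 of 20510. Of 12 other transcription factors of the transition 3 were higher, 2 lower and 7 did not pass (median 0.012), against 4 higher and 0 lower in the rebuilt values with a regression, 10 and 0 without it, and 0 and 2 after quantile normalization. SOX9, a stem and progenitor cell factor, was 3.26-fold higher (adjusted p = 0.0131), ETS1 1.62-fold higher and the corepressor CTBP1 1.41-fold higher, and none of these calls held with quantile normalization. FOXC2 was at least 2.37-fold and PRRX1 1.46-fold lower, though raw intensities of both overlapped between the substrates. PRRX1 did not pass in the rebuilt values with a regression (log2 change −0.21, adjusted p = 0.0950) and was called higher without it (log2 change 0.54, adjusted p = 0.0253), or −0.71 relative to the shift of all probes.

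Of 34 other mesenchymal markers 12 were higher, 8 lower and 14 did not pass (median 0.11). The rebuilt values gave 14 higher and 2 lower with a regression and 27 and 0 without it, and quantile normalization 8 and 6. The balance of directions thus changed with the scaling, as it did over all probes. The microfibril gene FBN1 was at least 6.76-fold higher (adjusted p = 1.26e-06), the smooth muscle gene CNN1 at least 5.43-fold and the collagen VI gene COL6A2 at least 4.72-fold, and these calls held in the rebuilt and quantile-normalized values. Without a regression, however, most probes were called higher. Relative to the shift of all probes there, FBN1 was at 0.41, CNN1 at 0.12 and COL6A2 at 0.70. These genes and PDGFRB also had means below 0 on plastic and above 1 on crECM, but COL6A2 was at 0.99 on the first plastic array and counted only through the lowest value on the second. The surface glycoprotein gene THY1 was 3.14-fold lower (adjusted p = 0.00642), the collagen I gene COL1A2 at least 2.36-fold and S100A4 at least 1.92-fold, both COL1A2 and S100A4 from near the floor on plastic. Raw intensities of each of these genes overlapped between the substrates. THY1 did not pass in the rebuilt values without a regression (log2 change −0.44, adjusted p = 0.310 in limma). COL1A2 was not tested in the rebuilt values, and S100A4 in none of the other scalings. CDH2, the gene of N-cadherin, was 1.29-fold higher, at 1.59 and 1.63 on plastic and 1.66 to 1.78 on crECM (adjusted p = 0.0240).

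Of 30 epithelial genes 3 were higher, 11 lower and 16 did not pass (median −0.12). CDH1 was at 1.52 and 1.59 on plastic and from 0.80 to 1.33 on crECM, and so 2.15-fold lower (adjusted p = 0.0330), without overlap. CDH1 passed in limma after quantile normalization (log2 change −0.96, adjusted p = 0.0367). It did not pass in the rebuilt values with a regression (log2 change −0.68, adjusted p = 0.0823) or without it (log2 change 0.23, adjusted p = 0.583). Without the regression it was at −1.02 relative to the shift of all probes. Its raw intensities overlapped, at 302 and 343 on plastic and 173 to 453 on crECM. The lipid enzyme gene CDS1 was at least 2.64-fold and the vesicle gene RAB25 at least 2.17-fold lower, from near the floor. Raw intensities of CDS1 overlapped, at 41.3 and 35.3 on plastic and 6.29 to 86.4 on crECM. Those of RAB25 ran the other way, at 42.5 and 20.1 on plastic and 46.0 to 79.4 on crECM. RAB25 was not tested in the rebuilt values. The mucin gene MUC1 was 2.08-fold and JUP, of the junction protein plakoglobin, 1.32-fold higher, but MUC1 did not pass after quantile normalization (log2 change 0.43, adjusted p = 0.109). EPCAM, of the epithelial cell adhesion molecule, did not pass either (log2 change −0.014, adjusted p = 0.969). Rebuilt and regressed, 5 genes of the list were higher and 5 lower, without a regression 16 and 0, and after quantile normalization 2 and 12. Lower calls thus outnumbered higher ones in the deposited and quantile-normalized values only. The list median lay below that of all probes in each scaling. It was −0.12 against 0.057 as deposited and 0.044 against 0.17 rebuilt with a regression. Without a regression it was 0.74 against 1.25, and after quantile normalization −0.35 against −0.00024.

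Of 16 genes of TGF-beta inducers and mediators, through which the transition is commonly started, 5 were higher, 5 lower and 6 did not pass (median 0.19). The rebuilt values gave 8 higher and 1 lower with a regression and 12 and 0 without it, and quantile normalization 5 and 3. TGFB1 was at 1.27 and 1.30 on plastic and above 3 SD on 4 of 9 crECM arrays, at least 3.79-fold lower (adjusted p = 0.0368). The lower call held in limma in the rebuilt values with a regression (log2 change −1.21, adjusted p = 0.0300). It also held after quantile normalization (log2 change −1.28, adjusted p = 0.00161). Without a regression the log2 change of TGFB1 was 0.41 (adjusted p = 0.272), or −0.84 relative to the shift of all probes. Its raw intensities overlapped, at 133.8 and 128.5 on plastic and 5.95 to 271 on crECM. TGFB2 did not pass (log2 change −0.29, adjusted p = 0.445). SKIL, of a corepressor of SMAD proteins, was at least 4.42-fold higher, with a mean below 0 on plastic and above 1 on crECM, and INHBA was 1.94-fold and SMAD4 1.69-fold higher. The inhibitory SMAD6 was 1.62-fold and TGFBR3 1.58-fold lower, calls that did not pass in the rebuilt values.

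Of 11 receptors of fibronectin and tenascin 2 were higher and 9 did not pass (median −0.030). These were the integrin genes ITGB3 at 1.58-fold (adjusted p = 0.00102) and ITGAV at 1.44-fold (adjusted p = 0.00899), and none was lower. ITGAV did not pass after quantile normalization (log2 change 0.33, adjusted p = 0.0883), which left 1 higher call, and the rebuilt values gave 2 with a regression and 10 without it. Of 18 relatives of the members 7 were higher, 2 lower and 9 did not pass (median 0.33), against 6 and 2 in the rebuilt values with a regression, 15 and 0 without it, and 5 and 2 after quantile normalization. VTN, of the adhesive protein vitronectin, was 3.81-fold, the filament gene GFAP 2.32-fold and SMOC2, a relative of SPARC, 2.21-fold higher, while the tenascin gene TNXB was at least 2.83-fold and SPOCK1 1.75-fold lower.

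**Figure D4:**
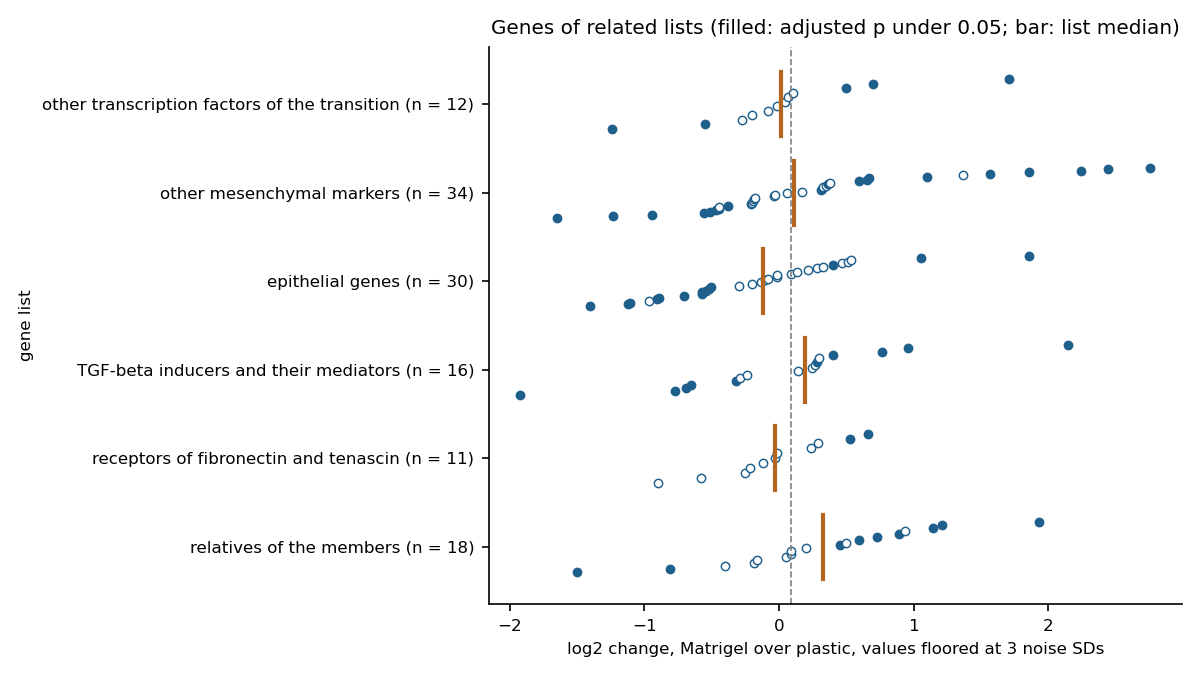
Log2 change between crECM and plastic (values floored at 3 SD) of each gene in 6 lists related to the members, for the deposited values, 1 point a gene. Filled points have an adjusted p under 0.05 in limma, bars are list medians and the dashed line is the median of all genes at 0.087. Filled points lie on both sides in 5 of the lists, while the receptors have 2 filled points, both higher.

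Markers of cell types show how far a value above 3 SD is tied to a tissue on these arrays. In the deposited values urothelial markers were above 3 SD for 14 to 15 of 15 genes on plastic and 11 to 13 on crECM, with a summed level of 796 to 836 SD on plastic and 664 to 1311 SD on crECM. Fibroblast markers were above it for 8 of 9 on every array (245 to 256 SD on plastic, 210 to 238 SD on crECM), all but PDGFRB on plastic. Endothelial markers were above it for 5 of 7 on plastic and 6 to 7 on crECM (142 to 144 and 155 to 183 SD), leukocyte markers for 5 of 6 and 5 to 6 (148 to 150 and 158 to 198 SD). Muscle markers were above it for 3 of 7 on plastic and 3 to 6 on crECM (95.6 to 105 and 118 to 193 SD), the muscle factor MYOG staying below it throughout. By raw intensity over the rebuilt noise peak the counts on plastic were lower, and those of urothelium were 8 to 11 on plastic and 11 to 12 on crECM. The raw counts were 4 to 6 on plastic and 7 to 8 on crECM for fibroblast, 3 and 5 to 7 for endothelial, 3 to 4 and 5 to 6 for leukocyte, and 1 and 3 to 6 for muscle markers. Genes that define other cell types thus reached 3 SD on both substrates on either scale, fewer of them on plastic by raw intensity, and their part in the changes of the members was not tested. The labels describe a single cultured line, so these counts are not numbers of cells of other types. In its bulk RNA, fewer expressing cells and less RNA per cell cannot be told apart.

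Finally, for each called probe the genes with the most similar deposited values over the 11 arrays were named. They were SLC25A37 and GHDC for LOX (r = 0.9997 for each), TMEM143 and GABRD for the NM_002160 probe of TNC (r = 0.995 and 0.994), GFOD1 and PEX10 for ZEB1 (r = 0.999 and 0.986), OSBPL9 and MAP3K8 for the NM_014795 probe of ZEB2 (r = 0.987 and 0.979), and TOR1A and KLF16 for SNAI1 (r = 0.946 and 0.943). For all but SNAI1, arrays at their shared lowest value weigh most in r, so these are descriptions of which arrays were at that value.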

How the data were processed

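RNA of RT4 cells on plastic (2 arrays) and crECM (9 arrays) was hybridized to spotted arrays. For every array raw intensity was deposited, and log10 values were deposited in 1 table. Per the methods, the authors divided each signal by the SD of its array's noise peak, and regressed the arrays, after log10, on each other by a robust linear fit; how background was subtracted is not given in the sources used here. Probe names came from a table of the platform, in which 17043 probes had 1 symbol, 172 several and 5249 none; 16952 matched GRCh38.p14 by gene identifier. Members and gene lists were chosen with earlier results of these data known.

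Deposited values were floored at 3 SD, turned into log2 and tested with limma 3.58.1 (R 4.3.3; eBayes with a trend, two-sided) over the 21480 probes that exceeded 3 SD on 2 or more arrays, with Benjamini-Hochberg adjustment and a threshold of 0.05. Fits were crECM against plastic (11 arrays), slope on log2 of the day, and 12 h against later days (9 arrays each). Folds are bounds ("at least") where the lower substrate had a floored array. Of list genes, up to 3 in each direction with the largest called change and no overlap are named, besides CDH1, CDH2, EPCAM, TGFB1 and TGFB2; the genes of highest correlation with each called member probe, 2 for each, are named too. Genes counted as off-on were named after their values were seen.

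Alternatives were no floor, floors of 1 and 5 SD, no filter, values rebuilt from raw intensity (noise mode from a kernel of bandwidth 6, SD from the values below it) with and without a regression, quantile normalization, eBayes without a trend, array weights and leaving out each array. On simulated data for crECM against plastic, 50 probes were changed by each of 4 sizes among 21480: 2-fold (78% recovered), 3-fold (94%), 4-fold (100%) and 8-fold (98%). The changed probes were drawn only from those with a mean log10 value above 1, with the largest spreads left out. These shares therefore do not cover probes near the floor. False calls numbered 11, and far fewer probes changed there than in the real data. Python 3.11.15, numpy 2.4.6, pandas 2.3.3, scipy 1.17.1 and matplotlib 3.10.9 were used.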

Additional observations from a re-analysis of the deposited data

Results flagged for a closer look

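Of 10 groups of crECM arrays examined, 3 had an array that stood apart from the rest by its gap to the nearest value over the whole range, where chance gives about 0.5 (1 in 20). SNAI2 was lowest on day 9, at 1.33 against 1.46 for the next (gap over range 0.622). ZEB1 was highest at 12 h, at 0.61 against 0.49 (0.899, with the range cut short by other arrays at the floor). The NM_002160 probe of TNC was lowest on day 3, at 0.69 against 1.12 (0.714).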

How the results depend on the processing

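The 5 called member probes between crECM and plastic (2 higher, 3 lower) became 3 with values rebuilt from the raw intensities with a regression; 7 were higher and 0 lower without the regression, and 1 was lower with no floor and 1 with the rebuilt values and a regression. Leaving out 1 array gave 4 to 6 in all. LOX and the NM_002160 probe of TNC were called in 20 of 20 alternatives, with log2 changes from 0.68 to 11.69 and from 0.98 to 6.93. The rebuilt values without a regression shifted all probes by 1.25 on the log2 scale and turned SNAI1 to 0.99, SNAI2 to 0.96 and FN1 to 0.78, which relative to that shift were −0.26, −0.29 and −0.47. FN1 was at 0.0594 with the rebuilt values and a regression, where all probes shifted by 0.17, and SPARC at −0.0365 after quantile normalization and between −0.0797 and 0.20 with 1 array left out, the lowest being without plastic replicate 2. The 2 probes higher at 12 h became 0 with a floor of 5 SD, with the rebuilt values without a regression and after quantile normalization, and 1 with the rebuilt values and a regression and with eBayes without a trend; leaving out 1 array gave 1 to 2. For ZEB1 the lower call was not testable without the regression, and the NM_014795 probe of ZEB2 was not tested in either set of rebuilt values. The 2 off-on members became 0 with the rebuilt values, and 1 to 2 without 1 plastic array. Over all probes, 4901 higher and 4815 lower became 5730 and 1653 with the rebuilt values and a regression, 15796 and 61 without it, 3064 and 3687 after quantile normalization, 3285 and 3451 without plastic replicate 1 and 2639 and 3069 without plastic replicate 2. Where a result changed beyond the removal of samples or probes, the cause was not tested. With 1 plastic array left, it was assumed to vary like the other group. No paired analysis was possible because the crECM arrays are single time points whose labels carry no replicate number. Signals near the noise, such as those of ZEB1 and ZEB2, are limited by their raw intensity over background.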
